A study of Mus musculus with 24 samples.

Results

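Factor-free distal H3K27ac regions are stretches of acetylated chromatin away from gene ends in which asynchronous mouse embryonic stem cells had no listed peak of Klf4, Oct4 or Sox2. They were chosen from the asynchronous peak lists: regions with an H3K27ac peak in both asynchronous libraries, narrower than 5000 bp, with the nearer edge more than 1 kb from any end of a protein-coding gene, and sharing no base with an asynchronous peak of the 3 factors. Of 34684 regions with a peak in both lists 33618 met the width limit, 22284 of those were distal, and 13477 (38.9% of 34684) were also factor-free. The other 8807 distal regions were factor-bound, 8056 of them with Klf4, 1463 with Oct4 and 1432 with Sox2, and served for comparison together with 4706 factor-free regions at gene ends. Since asynchronous values made the choice, they are given below as a description, and the mitotic lists are what was compared.

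The cells were V6.5 embryonic stem cells, a line of mixed C57BL/6 and 129 background, profiled by chromatin immunoprecipitation and sequencing (ChIP-seq) after 10 min in 1% formaldehyde. The mitotic group had 7 h of nocodazole, which blocks spindle assembly, at a dose the labels put at 100 ug/ml, and was collected by shaking rounded cells off the plate, while the asynchronous group had no arrest. Both groups were grown on irradiated feeders with LIF and serum, and the labels add that cells were moved to gelatin with inhibitors of MEK1 and Gsk3 before synchronization. H3K27ac had 2 mitotic and 2 asynchronous libraries, Klf4 had 3 of each, Oct4 and Sox2 had 2 mitotic and 1 asynchronous library each, and a further Klf4 library came from a mix with 10% stem cells and 90% neural progenitors. Nothing in the labels says that replicates came from separate cultures, so their spread may be technical.

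The H3K27ac lists held 36526 and 30771 peaks for mitotic 1 and 2, and 47475 and 46491 for asynchronous 1 and 2. Sequencing depth is unknown. The mitotic H3K27ac libraries came from project EC-DG-3514 and the asynchronous ones from project EC-DG-3458, so cell cycle state and project cannot be told apart for this mark. The stem cell label was checked by counting marker genes with an asynchronous H3K27ac region within 1 kb of a gene end, which 25 of 28 naive pluripotency genes had, against 5 of 20 fibroblast genes (feeder cells), 7 of 20 neural progenitor genes and 7 of 25 germ layer regulators.

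H3K27ac, acetylation of lysine 27 of histone H3, is laid down by the acetyltransferases p300 and CBP and marks active promoters and enhancers. In stem cells many enhancers are occupied by Oct4, a POU factor, Sox2, an HMG box factor, and Klf4, a zinc finger factor, which together maintain pluripotency. During mitosis chromosomes condense, most transcription stops and many factors leave chromatin, and acetylation that persists is one of the marks discussed as a memory of active sites. In the account below a region is kept when both mitotic H3K27ac lists had a peak sharing at least 1 bp with it, lost when neither had, and intermediate when 1 had.

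Sequence was available for transcription starts and microRNAs that lay inside such regions, and a kept and a lost example of each kind of start are printed here. A region more than 1 kb from the outer ends of every gene can still hold an internal or noncoding start, and 289 of the 13477 held a RefSeq start of a protein-coding gene while 226 held only one of a long noncoding RNA. The windows below run from 250 bases before to 50 bases after the start, 5′ to 3′ on the strand of the gene (RefSeq, GRCm38.p6), with CG dinucleotides in capitals. They are the strongest kept and the strongest lost region of each kind shown here, by asynchronous H3K27ac.
Rpl19, ribosomal protein of the large subunit, kept, chr11:98026460-98026759, plus strand: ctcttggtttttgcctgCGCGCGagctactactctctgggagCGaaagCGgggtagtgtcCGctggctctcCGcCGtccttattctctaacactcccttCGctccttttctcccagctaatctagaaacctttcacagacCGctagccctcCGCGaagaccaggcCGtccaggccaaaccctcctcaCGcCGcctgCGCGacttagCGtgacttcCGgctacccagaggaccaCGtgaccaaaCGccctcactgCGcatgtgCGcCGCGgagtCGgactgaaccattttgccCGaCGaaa
1110038B12Rik, long noncoding RNA, kept, chr17:34952422-34952721, minus strand: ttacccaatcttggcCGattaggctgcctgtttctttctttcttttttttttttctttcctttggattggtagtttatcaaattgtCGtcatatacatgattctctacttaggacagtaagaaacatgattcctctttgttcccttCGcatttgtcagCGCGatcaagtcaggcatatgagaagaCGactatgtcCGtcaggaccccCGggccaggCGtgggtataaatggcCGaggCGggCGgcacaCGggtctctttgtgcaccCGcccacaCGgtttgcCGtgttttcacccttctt
Pakap, lost, chr4:57567580-57567879, plus strand: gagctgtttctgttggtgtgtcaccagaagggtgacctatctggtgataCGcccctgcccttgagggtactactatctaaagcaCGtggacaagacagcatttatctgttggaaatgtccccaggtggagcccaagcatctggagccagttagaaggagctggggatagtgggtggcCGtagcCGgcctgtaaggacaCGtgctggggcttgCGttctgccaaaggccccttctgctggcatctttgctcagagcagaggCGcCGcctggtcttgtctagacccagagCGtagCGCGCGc
1110002O04Rik, long noncoding RNA, lost, chr1:35869698-35869997, plus strand: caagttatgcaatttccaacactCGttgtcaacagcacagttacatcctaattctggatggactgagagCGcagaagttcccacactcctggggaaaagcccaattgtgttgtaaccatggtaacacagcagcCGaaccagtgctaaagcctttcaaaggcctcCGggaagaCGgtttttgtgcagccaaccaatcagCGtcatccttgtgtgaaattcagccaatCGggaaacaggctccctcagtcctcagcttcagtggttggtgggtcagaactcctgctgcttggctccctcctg

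The capitals mark 28 CG dinucleotides in the Rpl19 window and 16 in that of 1110038B12Rik, against 12 in the Pakap window and 7 in that of 1110002O04Rik. Single windows did not all have this order: next in strength, the kept regions at Atad2b and Gm42005 had windows with 29 and 4, and the lost regions at Mrps23 and 4930423B08Rik had 25 and 8. The Rpl19 region (chr11:98025694-98028778) had H3K27ac folds of 37.8 and 43.8 in mitotic 1 and 2 and 32.2 and 30.8 in asynchronous 1 and 2. Pakap's region (chr4:57567557-57568451) was in neither mitotic list and had folds of 9.69 and 8.60 in asynchronous cells. Over all windows with a start in such a region, the median number of CG dinucleotides was 15 in the 296 windows of kept regions, 10.5 in the 100 of intermediate regions and 9 in the 215 of lost regions, and it was 7 in all 32851 windows of the table. The median was thus higher in the group with mitotic H3K27ac, while the quartiles overlapped, from 6 to 25 in kept and from 4 to 19 in lost regions. CG dinucleotides were not compared at matched strength. The letters CACCC, the core recognised by Klf factors, were found on either strand in 57.4% of kept, 65.6% of lost and 57.5% of all windows. For the octamer ATGCAAAT these shares were 1.35%, 2.33% and 1.74%, and for the Sox letters ACAATGG 1.01%, 4.65% and 3.66%. None of these shares was tested. Regions with a start were also stronger in asynchronous cells than regions without one (median strength percentile 59.7 against 43.1), and within quintiles of strength the kept share with and without a start was 16.7% and 14.2%, 14.3% and 21.2%, 36.5% and 42.2%, 68.6% and 65.4%, and 95% and 82.9%. A start thus went with a higher kept share in the strongest quintile (100 regions with a start) and not in quintiles 2 and 3.

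MicroRNA hairpins lay in 11 of the regions, 15 hairpins in all, and 2 of these 11 regions were kept, 5 lost and 4 intermediate (31.6%, 53.0% and 15.4% of all factor-free distal regions). The cluster of miR-302 and miR-367, microRNAs of pluripotent cells that act on cell cycle and differentiation genes, lay inside Larp7 in 1 region (chr3:127545029-127546181). It was lost, with asynchronous folds of 4.51 and 6.68, and the nearest asynchronous factor peak was 0.11 kb away. Mature sequences are given 5′ to 3′ with the seed, bases 2 to 8, in capitals. The miR-302 forms are shown because their seeds relate them and 1 region holds them all, miR-9-5p, a neural microRNA, as another lost case, and miR-193a-3p as a kept one.
mmu-miR-302b-3p, lost: uAAGUGCUuccauguuuuaguag
mmu-miR-302d-3p, lost: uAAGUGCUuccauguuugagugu
mmu-miR-302c-3p, lost: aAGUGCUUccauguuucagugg
mmu-miR-367-3p, lost: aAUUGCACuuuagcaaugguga
mmu-miR-9-5p, lost: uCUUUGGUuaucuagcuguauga
mmu-miR-193a-3p, kept: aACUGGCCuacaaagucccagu

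miR-302b-3p and miR-302d-3p share the seed AAGUGCU, and miR-302c-3p is listed from a base further on, which gives AGUGCUU. The miR-193a region (chr11:79710881-79712363) had H3K27ac folds of 3.78 and 4.04 in mitotic cells and 8.36 and 12.3 in asynchronous cells, and the miR-7671 region by Irf1 (chr11:53762670-53764975), the other kept one, 5.23 and 6.92 in mitotic and 11.02 and 13.7 in asynchronous cells. Mir9-3 (chr7:79505031-79505708) lay in a lost region with asynchronous folds of 5.37 and 4.64. The peak lists say nothing of the levels of these microRNAs.

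The factor-free distal regions had an H3K27ac peak in 41.4% of cases in mitotic 1 (5576 regions, exact 95% interval 40.5 to 42.2) and 37.2% in mitotic 2 (5011 regions, 36.4 to 38.00), or 39.3% ± 2.96 (SD, n = 2). The mitotic lists are shorter than the asynchronous ones. With the 4 lists held to the same length of 30771 peaks, the rule chose 7113 regions. Their mean recovery was 53.2%, and 38.6% of them were lost. Trimming thus changed the regions as well as the lists. At that setting the difference was −4.89 points from factor-bound distal regions and −21.6 points from factor-free regions at gene ends. With the lists as deposited, the share over all 34684 regions was 57.8% in mitotic 1 and 53.2% in mitotic 2. In all 4258 were kept (31.6%, 30.8 to 32.4), 2071 intermediate (15.4%) and 7148 lost (53.0%, 52.2 to 53.9), against 47.9% kept and 36.9% lost over all regions. Intervals here and below cover counting error only, and regions are not replicates of a state.

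**Figure D1:**
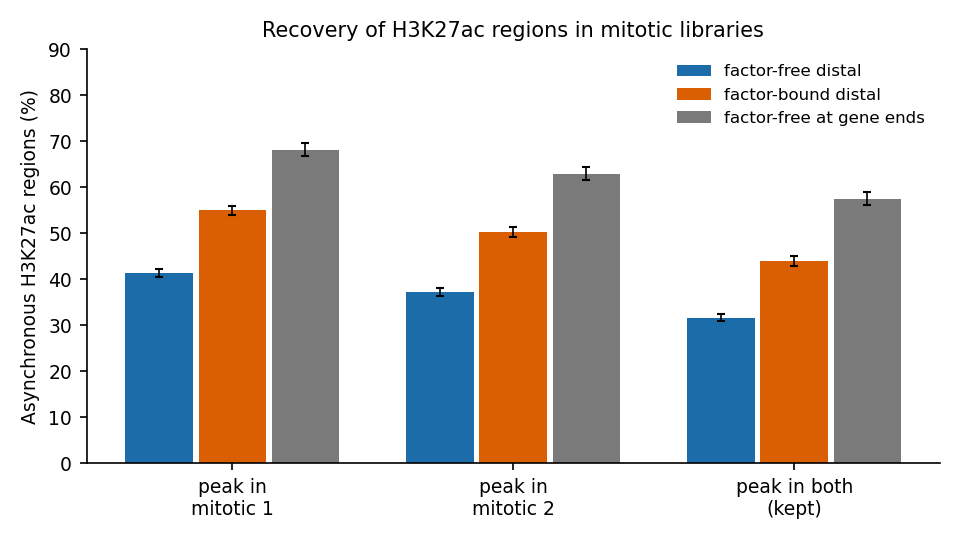
Percent of asynchronous H3K27ac regions with a peak in mitotic 1, in mitotic 2 and in both (kept), for factor-free distal regions (blue, n = 13477), factor-bound distal regions (orange, n = 8807) and factor-free regions at gene ends (grey, n = 4706). Bars are percentages with exact 95% intervals, and the blue bars (41.4%, 37.2% and 31.6%) are the lowest of each trio.

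Both comparison sets were recovered more often. Factor-free distal regions lay 13.3 percentage points below factor-bound distal ones, which had 55.0% in mitotic 1 and 50.2% in mitotic 2 (differences of −13.6 and −13.0 points). Against factor-free regions at gene ends, with 68.2% and 62.9%, the difference was −26.3 points (−26.8 and −25.8), and −16.1 points where distal and gene end were divided at 5 kb. The sign was the same in both mitotic libraries, for which an exact sign change test gave p = 0.5, the smallest that 2 libraries allow. These differences include that of strength, taken up next.

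The factor-free distal regions were weak in asynchronous cells, and the weak ones were rarely kept. Strength here is the percentile of a region's highest peak fold within each asynchronous list, averaged over the 2 lists. Its median was 43.6 over all factor-free distal regions, 62.2 in kept, 46.0 in intermediate and 35.0 in lost ones. Quintiles of strength were set over all 34684 regions, and 4465, 3761, 2972, 1839 and 440 factor-free distal regions fell in quintile 1 (weakest) to 5. Of these 14.3%, 21.0%, 42.0%, 65.6% and 85.7% were kept. Factor-bound distal regions had 14.6%, 19.1%, 32.1%, 57.2% and 86.9% in the same quintiles, so at matched strength the order turned in the middle 3. Weighted over quintiles, recovery of the factor-free regions was 2.43 points above that of factor-bound ones (2.099 and 2.76 in mitotic 1 and 2; exact sign change p = 0.5), and −0.97 points once regions over 100 kb from a factor peak were left out. Gene end regions stayed above at matched strength, by −8.18 points (−9.11 and −7.24) for factor-free distal minus gene end regions. A mitotic peak can be wide enough to meet a region and its neighbour, and when such shared peaks were not counted, 25.4% of the factor-free distal regions were kept, the difference within quintiles was 5.67 points against factor-bound distal regions and −2.80 points against gene end regions. Kept regions were also wider, with a median of 1113 bp against 807 bp in lost ones, and a wider region meets a peak more often by construction.

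**Figure D2:**
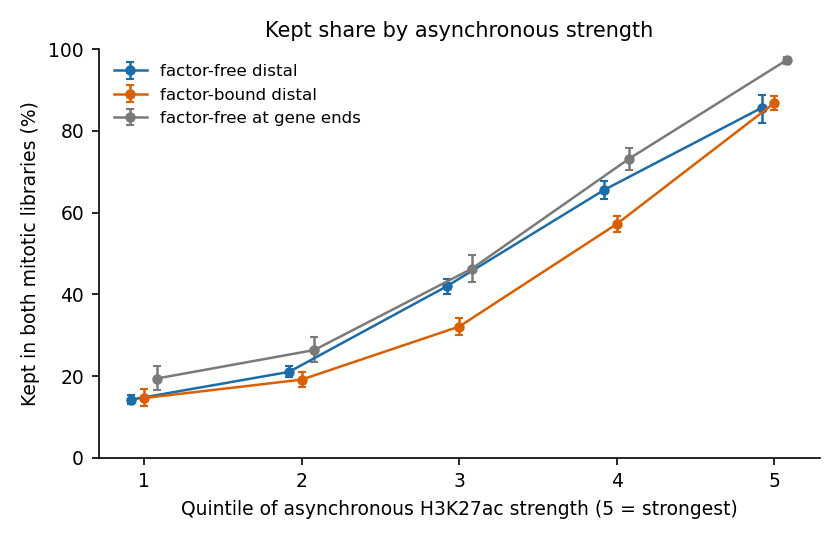
Percent kept in both mitotic libraries by quintile of asynchronous H3K27ac strength (1 weakest, 5 strongest, bounds from all 34684 regions), with exact 95% intervals. The factor-free distal line (blue) lies above the factor-bound distal line (orange) in quintiles 3 and 4 (42.0% against 32.1%, 65.6% against 57.2%), and gene end regions (grey) reach 97.4% in quintile 5.

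Absence from the mitotic lists was set against absence from the other asynchronous list, on regions chosen from a single asynchronous list by the same rule. Mitotic libraries had a peak in 30.4% ± 2.43 of them (32.1% in mitotic 1 and 28.7% in mitotic 2), and the held-out asynchronous library in 71.9% ± 5.87 (76.0% where it was asynchronous 1 and 67.7% where it was asynchronous 2; SD, n = 2 each). Both mitotic values lay below both asynchronous ones, and held-out asynchronous minus mitotic recovery was 41.5 points (exact permutation test, two-sided, p = 0.3333, the smallest that 2 against 2 libraries allow). The held-out library shared its project with the list used for the choice, and both asynchronous lists were longer than the mitotic ones. State, project and list length are thus mixed in this difference, which was 32.9 points with lists of equal length.

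The kept share of the factor-free distal regions also differed with their distance from the nearest asynchronous factor peak, which had a median of 8.46 kb. Up to 1 kb from such a peak 17.8% of 2236 regions were kept, at 1 to 5 kb 27.3% of 3108, at 5 to 20 kb 27.5% of 3604, at 20 to 100 kb 34.3% of 2875, and beyond 100 kb 62.6% of 1654 (60.2 to 64.9). The far regions were recovered at 70.6% and 67.0% in mitotic 1 and 2, against 33.5% and 29.4% for the 5344 regions within 5 kb, a difference of 37.4 points (37.1 and 37.7; exact sign change p = 0.5), and of 22.0 points with lists held to a −log10 q of at least 5. Far regions were not wider (median 846 bp, against 863 bp up to 1 kb) but were stronger (median percentile 56.3 against 39.6). Within quintiles of strength the difference was 31.3 points. In quintiles 1 to 4 the kept share beyond 100 kb was 27.3%, 43.2%, 74.0% and 90.6%, against 10.2%, 15.0%, 18.8% and 39.3% up to 1 kb. Where mitotic peaks that also met another asynchronous region were not counted, 61.3% were kept beyond 100 kb and 9.97% up to 1 kb. Quintile 5 held only 16 far regions, of which 75% were kept, against 75%, 94.3%, 81.2% and 91.3% in the 4 nearer bins. Repeats and mappability were not examined here.

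**Figure D3:**
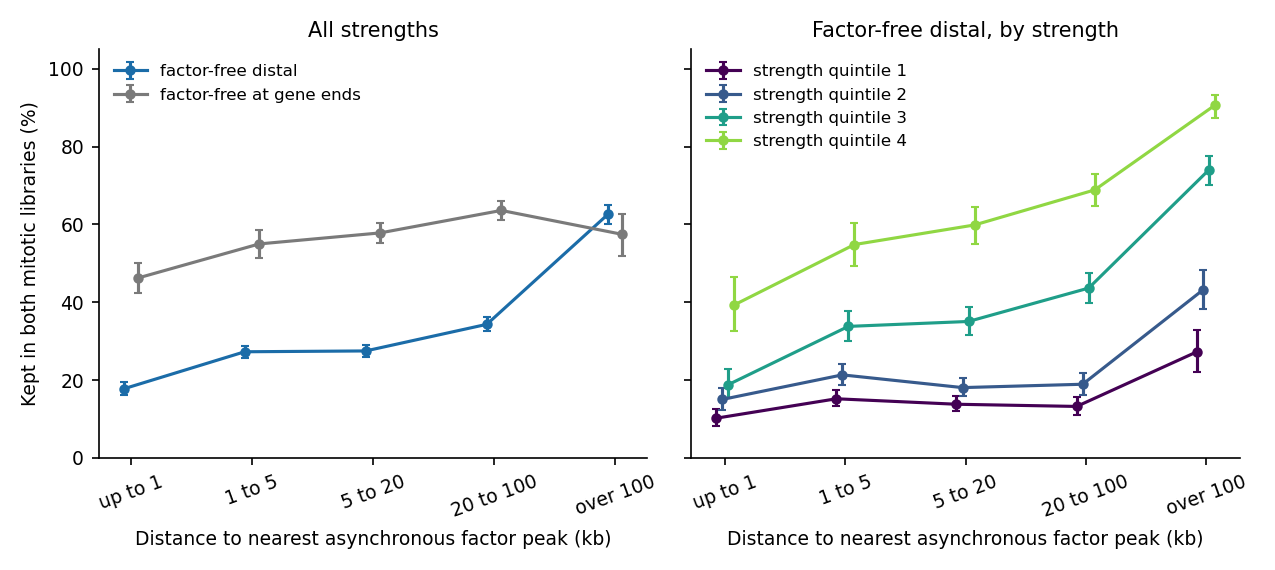
Percent kept in both mitotic libraries by distance to the nearest asynchronous Klf4, Oct4 or Sox2 peak (kb, binned), with exact 95% intervals; left, factor-free distal regions (blue) and factor-free regions at gene ends (grey), right, factor-free distal regions by strength quintile 1 to 4 (quintile 5 is left out, with 16 regions in the last bin). The blue line goes up at the last bin to 62.6%, and each of the 4 lines on the right has its highest point there.

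At gene ends the factor-free regions had no such step: 46.2%, 55.0%, 57.8%, 63.6% and 57.4% were kept in the same bins of distance, and in quintile 3 the shares up to 1 kb and beyond 100 kb were 40.4% and 46.2%. Far regions also lay far from genes, with a median of 127 kb to a gene end. Of regions over 100 kb from a gene end, 68.5% of 933 were kept where the factor peak was also over 100 kb away and 28.4% of 1369 where it was nearer. Within 100 kb of a gene end, 54.9% of 721 regions far from a factor peak were kept, against 27.1% of 10454 nearer to one. In the regions chosen from asynchronous 2 alone, mitotic 1 and 2 had peaks in 62.4% and 58.5% of far regions and in 24.9% and 21.4% of those up to 1 kb from a factor peak, while the held-out asynchronous 1 had 85.1% and 78.4%. In those chosen from asynchronous 1 alone, mitotic 1 and 2 had 57.9% and 54.3% of far regions and 22.5% and 19.0% of those up to 1 kb, while the held-out asynchronous 2 had 76.4% and 69.5%. The gap between far and near regions was thus wider in each mitotic library than in the held-out asynchronous one. A region with no factor peak nearby is known as such only to the extent of the 5 asynchronous factor lists.

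The X chromosome held many of the far regions: 245 of its 520 factor-free distal regions (47.1%) were over 100 kb from a factor peak, against between 5.54% and 16.1% on the autosomes. Its kept share was 40.6%. Beyond 100 kb 62.9% of the X-linked regions were kept and 62.5% of those on other chromosomes, and within 100 kb of a factor peak 20.7% of 275 X-linked regions were. Among the genes with the most far and kept regions nearest to them were Cntnap5a, a neuronal adhesion gene, with 8 of 8 far regions kept, and Pcdh7, a protocadherin, with 7 of 7. Bod1l had 5 of 6, and the X-linked teneurin Tenm1 had 5 of 5. At Etl4, which was nearest to 23 regions, the most of any gene, 8 were kept and 9 lost, and none was far. Dock5, a guanine nucleotide exchange factor, had 14 regions with 0 kept and 12 lost. These genes were picked by their counts and are given as a description.

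The strongest kept regions had mitotic folds as high as asynchronous ones in a few cases and much lower in others. Inside Epc1, a subunit of the NuA4 acetyltransferase complex, the region on chr18:6489119-6492537 had folds of 46.2 and 44.4 in mitotic 1 and 2 and 41.7 and 43.2 in asynchronous 1 and 2. By Pum2, a translational repressor, the region on chr12:8640699-8641528 had 26.5 and 31.7 in mitotic and 38.6 and 38.4 in asynchronous cells. Inside Coro1c, a coronin of the actin cytoskeleton, the region on chr5:113870282-113874377 had 4.41 and 4.99 in mitotic and 33.6 and 30.7 in asynchronous cells. Fold depends on the depth and background of a library, and a percentile on how many weak peaks a list holds, so neither is a measure of change on its own. The Epc1 region stood at percentile 99.9 in mitotic and 99.7 in asynchronous lists, and the Coro1c region at 47.1 in mitotic and 98.7 in asynchronous lists. Dcaf1 (a ubiquitin ligase receptor), Hspa1b (a heat shock protein), Zfp64, Zfp607b, Zfp638, Abhd17b and Rpl19 complete the 10 strongest, with mitotic percentiles between 80.2 (Zfp607b) and 99.9 (Rpl19). By Dcaf1 and Abhd17b the peak in mitotic 1 was shared with another asynchronous region.

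The strongest lost regions had no peak in either mitotic list despite asynchronous folds between 12.6 and 20.3. They lay by Fabp12, a fatty acid binding protein (chr3:10306053-10307123, folds of 19.0 and 14.6 in asynchronous 1 and 2), and by Mlph, a linker in melanosome transport (chr1:90884485-90886648, 20.3 and 13.7). The Prdm16 gene, a regulator of brown fat, held one inside it (chr4:154599050-154602884, 14.9 and 15.9). Others lay by Bmper, Wdr1, Cnot11, Oscar, Myot and Atp5mpl, and at the start of 1110002O04Rik, which has no protein-coding gene within 100 kb. The region by Bmper, a BMP-binding protein, was 595 kb from a factor peak, while that by Fabp12 was 0.01 kb from one.

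Among kept regions the percentile differed both ways, and the balance depended on the length of the lists. Of the 4258 kept regions 1833 had a higher and 2425 a lower mean percentile in mitotic than in asynchronous lists, with a median difference of −3.73 points. With the 4 lists held to 30771 peaks the order turned, with 1872 of 3203 kept regions higher and 1330 lower and a median difference of 4.76 points, 218 being over 50 points higher and 43 over 50 points lower. With the lists as deposited, the mitotic percentile was over 50 points higher in 318 and over 50 points lower in 123. Such counts are given here for factor-free distal regions only, so they cannot be called particular to these regions. The 318 were weak in asynchronous cells (median folds 4.55 and 4.40) and strong in mitosis (13.4 and 13.3), and 3 of them (0.943%) held a gene start, against 9.76% of the 123 and 5.87% of the remaining 3817. Only 5.66% of the 318 lay over 100 kb from a factor peak, against 10.6% of the 123 and 26.3% of the rest. Of the 318, 31 were on chromosome 8, more than on any other chromosome. Chromosome 8 held 575 factor-free distal regions, of which 39.3% were kept, against 31.6% of all. The fold of a mitotic peak belongs to the whole peak, and in 171 of the 318 (53.8%) the strongest mitotic peak in at least 1 library also met another asynchronous region, against 6.50% of the 123 and 17.0% of the rest. Their mitotic peaks had median widths of 2.63 and 2.67 kb in mitotic 1 and 2, while the regions themselves had 0.870 kb. Of the 3429 kept regions whose mitotic peaks met no other asynchronous region, 147 were over 50 points higher in mitosis and 115 over 50 points lower, with a median difference of −7.10 points.

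**Figure D4:**
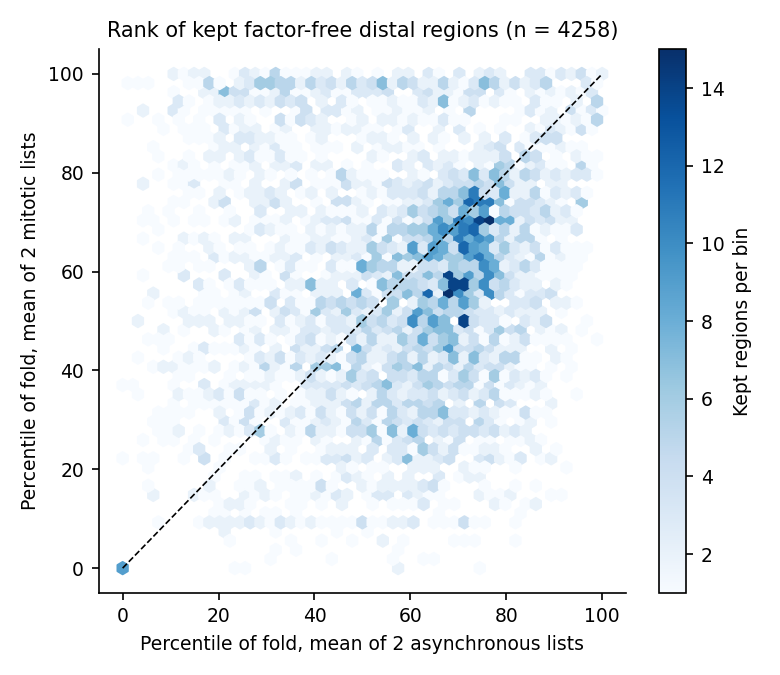
Mean percentile of fold of the 4258 kept factor-free distal regions in the mitotic lists (y axis) against the asynchronous lists (x axis), as counts per hexagonal bin; the dashed line marks equal percentiles. Most regions lie near or below the line, a band at the top holds regions of high mitotic and low asynchronous percentile, and the corner at 0 holds 9 regions with both percentiles under 1.

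The 5 largest gains in rank were by Gm21885, Zfp870, Ankrd10, C77080 and Wdtc1. By Gm21885 (chr11:94274125-94275159) the folds were 19.8 and 20.8 in mitotic and 3.54 and 3.66 in asynchronous cells. Inside C77080 (chr4:129235464-129236089) they were 39.2 and 43.2 in mitotic and 3.76 and 4.18 in asynchronous cells. Regions chosen for this gain have high values in both mitotic lists by construction. The mitotic peaks by C77080, Ankrd10 and Wdtc1 met a second asynchronous region, while those by Gm21885 and Zfp870 did not. The 5 largest losses of rank were by 5430403G16Rik, Ak3 (a mitochondrial adenylate kinase), Erv3, Gm5785 and Mto1 (a mitochondrial tRNA modifier), where the Ak3 region (chr19:29064172-29068383) had 3.53 and 3.77 in mitotic and 20.4 and 14.6 in asynchronous cells. Their kept calls rested on weak mitotic peaks. With −log10 q of at least 5 all 5 had a peak in neither mitotic library, and with equal lists each had one in 1 library. The 9 regions with both percentiles under 1 had folds from 1.47 to 3.32 in the H3K27ac lists, and 3 of them were nearest to the olfactory receptor gene Olfr161.

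Mitotic peaks of the 3 factors were rare in regions free of asynchronous ones. A peak in at least 1 of the 7 mitotic factor lists was found in 1105 of the 13477 regions (8.20%, 7.74 to 8.68), against 32% of all 34684 regions. The 34684 include regions with an asynchronous factor peak, which the rule left out, so a lower share follows in part from the choice. Factor-bound distal regions had 59.1%, and factor-free regions at gene ends, chosen without such peaks too, had 6.78% (6.08 to 7.53). By library, Klf4 mitotic 1, 2 and 3 had peaks in 0.809%, 0.378% and 2.37% of the regions. Oct4 mitotic 1 and 2 had them in 0.134% and 2.43%, and Sox2 mitotic 1 and 2 in 4.05% and 0.653%. These lists held 5754, 3795 and 8438 peaks (Klf4), 1246 and 5282 (Oct4), and 4537 and 1940 (Sox2). Within each factor a longer mitotic list had a higher share. Oct4 mitotic 2 and Sox2 mitotic 1 exceeded the asynchronous lists of these factors, of 3347 and 2986 peaks. No mitotic Klf4 list was as long as its asynchronous ones (10575 to 21307 peaks). An effect of list length on these shares was not tested. At least 1 mitotic library had Klf4 in 437 regions (3.24%, against 25.4% of all regions), Oct4 in 329 (2.44%, against 8.01%) and Sox2 in 568 (4.21%, against 9.23%). The same factor in at least 2 mitotic libraries was found in 40 regions for Klf4, 16 for Oct4 and 66 for Sox2 (0.297%, 0.119% and 0.490%, against 11.1%, 2.29% and 3.56% of all regions). Of the 1105, 894 had 1 factor, 193 had 2 and 18 had all 3. Many lay close to asynchronous peaks: 19.7% of the regions up to 1 kb from an asynchronous factor peak had a mitotic one, and between 3.99% and 7.41% of those farther off. With an overlap of at least 100 bp in place of 1 bp the share was 3.91%, and with lists held to a −log10 q of at least 5 it was 6.21%.

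**Figure D5:**
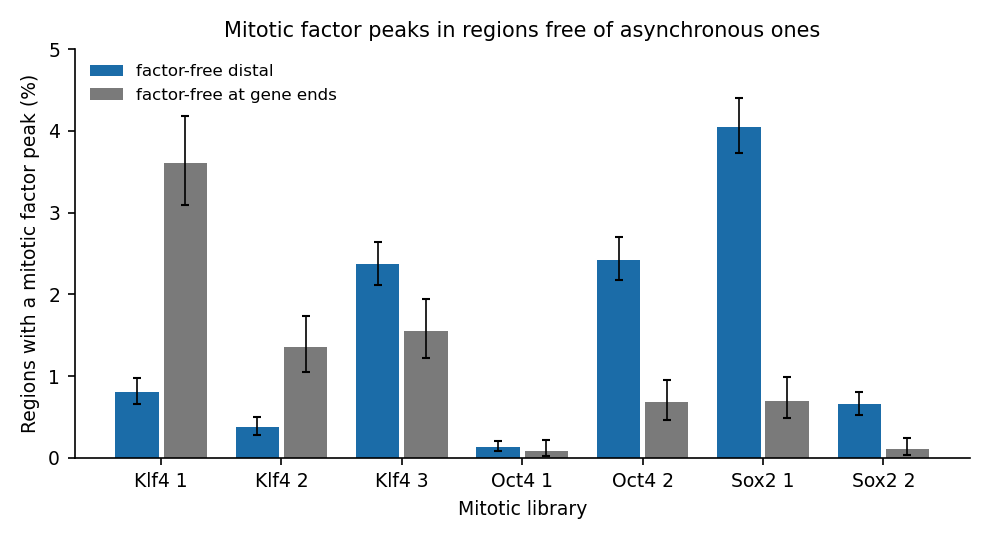
Percent of factor-free distal regions (blue, n = 13477) and of factor-free regions at gene ends (grey, n = 4706) with a peak in each mitotic factor library, with exact 95% intervals. The blue bar is the lower one for Klf4 1 and 2 (0.809% and 0.378% against 3.61% and 1.36%) and the higher one for the other 5 libraries, up to 4.05% against 0.701% for Sox2 1.

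Of the 1105 regions with a mitotic factor peak 26.8% were kept for H3K27ac and 55.8% lost, against 31.6% and 53.0% of all factor-free distal regions. These groups were not matched: the median strength of the 1105 was 52.1, against 43.6 over all, and many lay close to asynchronous factor peaks. The libraries differed, with 50.5% of 109 and 52.9% of 51 regions kept among those with a Klf4 peak in mitotic 1 and 2. For Klf4 mitotic 3 it was 22.6% of 319, and for Sox2 mitotic 1 and 2 it was 22.5% of 546 and 35.2% of 88. Median strengths were 55.8, 62.6 and 50.9 for Klf4 mitotic 1, 2 and 3. Klf4 mitotic 1 and 2 came from the project of the mitotic H3K27ac libraries, and all other mitotic factor libraries from project EC-EA-3702. The highest mean factor folds were on chr5:12873255-12875072, far from any gene, with Klf4 folds of 7.70 and 14.3 in mitotic 1 and 3 and Oct4 folds of 6.83 and 10.99 in mitotic 1 and 2. Its H3K27ac folds were 3.74 in mitotic 1, none in mitotic 2, and 7.92 and 9.32 in asynchronous cells. Inside Sox6, an HMG box gene of the Sox family, a kept region (chr7:115866463-115867516) had Sox2 folds of 13.1 and 7.34 in mitotic 1 and 2. Inside Tcf12, a basic helix-loop-helix gene, a lost region (chr9:71877385-71879617) had Sox2 folds of 13.8 and 6.26 in mitosis, and no asynchronous factor peak nearer than 106 kb. Ppp1r9a, Gm10634 and Zranb3 held further Sox2 cases, kept in all 3, and Mob3b had a lost region with Oct4. Sox2 cases with no gene within 100 kb were a lost region on chr12:62706376-62707258 (13.8 and 8.14 in mitotic 1 and 2) and a kept one on chr8:51124730-51125392 (15.5 and 5.99). Apart from Tcf12 and Mob3b (23.2 kb), these regions lay beside an asynchronous factor peak. The distance was 0.021 kb on chr5, 0 kb on chr12, 0.018 kb on chr8, 0.1 kb in Sox6, and 0.037, 0.007 and 0.017 kb in Ppp1r9a, Gm10634 and Zranb3. With −log10 q of at least 5, the chr8, Sox6, Ppp1r9a, Gm10634 and Zranb3 regions each had H3K27ac in 1 mitotic library.

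Regions by genes of the pluripotency network were present on both sides. Of 28 naive pluripotency genes 16 had factor-free distal regions inside them or within 20 kb of an end, 39 regions in all, of which 12 were kept (30.8%, against 31.6% of all) and 19 lost. The kept ones included a region inside Esrrb, an orphan nuclear receptor (chr12:86394612-86396960), with folds of 8.59 and 11.8 in mitotic and 13.0 and 11.4 in asynchronous cells. Another lay 6.82 kb from Nanog, a core pluripotency factor (chr6:122697885-122700674), with 5.52 and 5.19 in mitotic and 10.6 and 9.41 in asynchronous cells. The strongest region by Tbx3, a T-box factor (chr5:119662117-119664031), was lost, with 7.64 and 9.17 in asynchronous cells. Genes of the primed state had 20 regions with 3 kept (15.0%) and 14 lost; Sall2, Etv5 and Etv4 had the kept ones, and the strongest region by Foxd3, a forkhead factor, was lost. Germ layer regulators had 9 regions with 1 kept, by Eomes (a T-box factor of mesendoderm), and 7 lost. With −log10 q of at least 5 the Eomes region had a peak in 1 mitotic library. By Etv4 the peak in mitotic 1 was shared with another asynchronous region.

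For the other lists the shares are set beside the 31.6% kept and 53.0% lost over all factor-free distal regions, to which several lay close. Position was not matched in this, nor for the lists above. List regions lay in a gene or within 20 kb of an end. Their median distance to a factor peak was 2.12 to 5.36 kb over the 12 lists, against 8.46 kb over all. Factor-free distal regions 1 to 5 kb and 5 to 20 kb from a gene end were kept in 28.4% and 28.7% of cases. Neural progenitor genes had 6 of 24 regions kept (25.0%), led by a region by Notch1, a receptor of neural and many other lineages (chr2:26505929-26508498), with 26.5 and 31.7 in mitotic and 9.05 and 11.8 in asynchronous cells; its mitotic peaks were 6.04 and 6.83 kb wide and met other asynchronous regions as well. Fibroblast genes had 2 of 12 kept (16.7%), by Loxl1 and Fbn1, which encode extracellular matrix proteins. Mitotic cell cycle genes had 9 of 21 kept (42.9%), yet the strongest region by Cdk1, the kinase that drives mitosis (chr10:69326625-69328558), was lost, with 11.7 and 13.3 in asynchronous cells, as was that by the checkpoint kinase gene Bub1b. Genes of G1 and S phase had 9 of 27 kept (33.3%), among them a region 10.9 kb from Cdkn1a, a cyclin-dependent kinase inhibitor (chr17:29078068-29080051), with 22.5 and 24.5 in mitotic and 13.8 and 15.0 in asynchronous cells, and regions by Ccnd3, Myc and Pcna, where the mitotic peaks by Cdkn1a and Myc were shared with another asynchronous region. Chromatin regulators had 20 of 54 kept (37.0%), including regions inside Kdm6a and Kdm1a, which encode histone demethylases, and by Dnmt3l. Adhesion and epithelial genes had 16 of 50 kept (32.0%), with Tjp1, Itga6, Pard3 and Jup in the lead. Housekeeping genes had 6 of 21 (28.6%), signalling genes of the LIF, Wnt and Bmp pathways 7 of 33 (21.2%), and genes of glycolysis and energy 4 of 23 (17.4%). In the signalling list the strongest region, by the repressor of Wnt targets Tcf7l1, was lost, with 13.7 and 14.3 in asynchronous cells, and regions by Tcf7l2 and Tcf7 and inside Bmpr1a were kept. Among the regions named here as kept, those by Fbn1, Pcna, Dnmt3l and Tcf7 had a peak in 1 mitotic library with −log10 q of at least 5. Mitotic peaks were also shared with another asynchronous region by Pard3 in both mitotic libraries, by Jup and Kdm6a in mitotic 2, and by Bmpr1a in mitotic 1. Lists with few regions move by several points with each region, and no list was tested.

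By position, 6194 regions (46.0%) lay at least in part inside a protein-coding gene and 31.0% of these were kept, against 32.1% of the 7283 between genes. They were nearest to 6380 genes, of which 63 had 10 or more, and 1732 had no gene within 100 kb. At the limits of the rule, of regions up to 500 bp inside the distance limit 33.3% were kept (369 regions) and of those up to 500 bp outside it 33.9% (419 regions). Up to 500 bp under the width limit 82.9% were kept (35 regions) and from the limit to 500 bp above it 85.7% (21 regions). Where a factor peak lay within 100 bp of the region 15.8% were kept (1237 regions), and of distal regions left out for sharing up to 100 bp with a factor peak 20.6% (1970 regions).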

How the data were processed

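ChIP-seq peak lists of 17 libraries were used; the 7 inputs had no list of their own here. Per the submitters' processing notes, cutadapt 1.8.1, Bowtie2 2.2.5, deepTools 2.3.6 and MACS2 2.1.1 were used with mm10. In the deposited lists, 1 per library, the authors gave each peak a fold (ratio) and, as −log10 values, a p and a q, with −log10 p of at least 5 throughout. Read depth was not given, so only counting error is covered by the exact (Clopper-Pearson) 95% intervals.

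Lists were merged and overlapped (at least 1 bp) with Python 3.11.15, numpy 2.4.6, pandas 2.3.3 and scipy 1.17.1 and drawn with matplotlib 3.10.9; the overlap code was tested on simulated intervals. Gene ends came from 21887 protein-coding genes of RefSeq GRCm38.p6, whose starts and sequences are those of the RefSeq tables; a gene's ends here are the outer ends of its span. Genome sequence under the regions was not used here, and no window from chromosome 18 is shown. Strength quintiles were set over all 34684 regions.

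Recoveries per mitotic library were compared by exact sign changes or permutations over libraries. Replicate numbers did not pair the H3K27ac libraries (correlation of deviations −0.02 over kept regions). Regions named are the 10 strongest kept and lost, the 5 largest moves of rank each way, 10 highest mitotic factor folds present in 2 libraries, and per gene list the strongest region of up to 4 genes. Names are the nearest protein-coding gene within 100 kb, except that regions given under a gene list carry the name of the list's gene, which they lie in or within 20 kb of and which need not be the nearest. The regions, the 12 gene lists (298 genes) and the comparisons were chosen with earlier results of these data known. Alternatives are given in the closing section.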

Additional observations from a re-analysis of the deposited data

Results flagged for a closer look

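The Klf4 list from the mixed sample, 10% of whose cells were stem cells and the rest neural progenitors, which entered no comparison, had peaks in 12 of the 13477 factor-free distal regions (0.0890%, exact 95% interval 0.0460 to 0.155), against 0.125% of factor-bound distal regions and 0.0637% of factor-free regions at gene ends. In that list 98.0% of the peaks had a q above 0.05.

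The share of regions with a mitotic factor peak, factor-free distal minus factor-free gene end regions, had opposite signs in the 2 projects that made the mitotic factor libraries. In project EC-DG-3514 it was −2.80 percentage points for Klf4 mitotic 1 and −0.98 for Klf4 mitotic 2. In project EC-EA-3702 it was 0.82 for Klf4 mitotic 3, 0.049 and 1.75 for Oct4 mitotic 1 and 2, and 3.35 and 0.55 for Sox2 mitotic 1 and 2. The difference between projects was not tested.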

How the results depend on the processing

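With the 4 H3K27ac lists held to an equal length of 30771 peaks, recovery of the factor-free distal regions was 53.2%, the kept share 45.0%, the lost share 38.6% and the share with a mitotic factor peak 10.3% (7113 regions). With no factor peak within 1 kb, the kept share was 34.3%, the lost share 50.0% and the mitotic factor share 5.91%. Mitotic factor peaks were in 6.21% with a −log10 q of at least 5 and in 3.91% with an overlap of 100 bp. Without mitotic peaks that met more than 1 asynchronous region, recovery was 33.4%, the kept share 25.4% and the lost share 58.6%. Leaving out a library in turn, where 1 remaining library of a state then decided, recovery lay between 29.7% and 41.4%, the kept share between 23.1% and 41.4%, the lost share between 58.6% and 63.7% and the mitotic factor share between 5.72% and 8.20%; the differences lay between −22.9 and −13.0 points against factor-bound distal regions, between −28.1 and −25.8 against gene end regions and between 31.2 and 37.7 for far minus near regions. Factor-free minus factor-bound distal recovery reversed to 2.43 points within strength quintiles and to 5.67 with shared peaks also left out; it was −6.66 with −log10 q of at least 5, −7.55 without shared peaks, −4.89 with equal lists and −4.78 with no factor peak within 1 kb, and all its other alternatives but 1 lay between −22.9 and −11.1. The exception, within quintiles and without far regions, was −0.97. Against gene end regions it was −16.1 with distal over 5 kb, −8.18 within quintiles and −2.80 within quintiles without shared peaks. The comparison of far with near regions, the shared peaks, the percentiles with equal lists (median difference 4.76 in place of −3.73), the quintiles, and the runs without the X chromosome or far regions were chosen after seeing the data. Far minus near recovery kept its sign in 15 alternatives (22.0 to 44.5 points), and held-out asynchronous minus mitotic recovery in 8 (32.9 to 45.4). With a replicate block, held-out asynchronous minus mitotic recovery was 41.5 points with p = 0.5 (exact), but the numbers did not pair the libraries (correlation −0.03 over kept factor-free distal regions). Of 86 named regions 63 had the same call with −log10 q of at least 5, 77 with equal lists and 86 with an overlap of 100 bp. These settings only take peaks or overlaps away, so a lost region could not change. The changed calls, 23 and 9, all went to fewer libraries. Of the 57 named kept regions, 38 stayed kept with −log10 q of at least 5, 49 with equal lists and 57 with an overlap of 100 bp. No p over 2 libraries a state can pass 0.05, read depth is unknown, and the causes of these shifts were not tested.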
